A study of Mus musculus with 43 samples.

Results

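Host marrow cells of mice carrying a JAK2V617F graft were set against marrow cells of mice that were never transplanted, over all genes. The members were taken from the sample labels and make up 15 of the 43 libraries of the series, 7 of host cells and 8 of controls, with 1 mouse behind each library. Hosts were wild-type CD45.1 mice, 4 males and 3 females, that received 5000000 whole marrow cells carrying CD45.2 and JAK2V617F without any conditioning. They were killed about 7 months later. Controls were wild-type CD45.1 mice matched for age and sex, 4 males and 4 females, with no transplant. From both, CD45.1 cells were sorted after digestion of crushed bone and lysis of red cells, so the hosts' own blood-forming cells were read while the mutant graft cells were sorted away. Donor cells in blood at the end stood at 0.63 to 5.99 in hosts and 0 to 0.0032 in controls, for which the labels give no unit. No mice were given normal marrow, so the presence of mutant cells and transplantation itself cannot be told apart. Ages in weeks and the strain beyond the CD45 form are not given in the sources used here.

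CD45 is the tyrosine phosphatase on the surface of nearly all nucleated blood cells, and its allelic forms CD45.1 and CD45.2 let host and graft cells be separated. JAK2 is the kinase through which receptors for erythropoietin, thrombopoietin and several myeloid cytokines signal, and its V617F form is always active and drives myeloproliferative neoplasms, in which marrow overproduces red cells, platelets or granulocytes. Normal marrow makes all blood lineages side by side: neutrophils and their precursors dominate the RNA, monocytes and resident macrophages engulf debris and handle lipid and iron, and B cells pass through their early stages there. Cells fill their need for cholesterol by synthesis, under the transcription factor SREBP2, or by uptake, and release a surplus through transporters that liver X receptors switch on.

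The 15 libraries held 16.3 to 19.05 M counts in hosts and 15.71 to 18.56 M in controls (M, 1000000). CD45 itself (Ptprc) was read at 910.4 to 1158 CPM in hosts and 1045 to 1301 CPM in controls (CPM, counts scaled to a library of 1000000). Markers that a CD45 gate should leave out were low in every library: Cxcl12 of stromal cells at 8 to 65 counts in hosts and 11 to 42 in controls, Lepr at 1 to 15 and 1 to 6, Col1a1 of bone-forming cells at 26 to 61 and 28 to 78, and Cdh5 of endothelium at 14 to 46 and 14 to 36. The first principal component took 25.5% of the variance and separated the groups, at or below -3.35 in hosts and at or above 3.53 in controls. Host N269, with the lowest chimerism, stood apart at -37.6 on the second component, where the other libraries lay between -21.4 and 31.6, and its mature neutrophil genes took 4.32% of counts, above every other library. Control N051 had the highest share of mitochondrially encoded (1.54%) and ribosomal protein (6.68%) counts of all 15. Libraries are called by the animal numbers of the labels. All 15 libraries matched their labelled sex, no 2 were identical, and nothing in the labels says that a library pooled mice.

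The fit of edgeR's quasi-likelihood test with sex as a covariate covered 14073 genes, and 2312 had an adjusted p below 0.05 (called passed from here on). Of these, 1211 (8.61% of the genes tested) were higher in host cells and 1101 (7.82%) lower, and 4470 had an unadjusted p below 0.05. Most of the differences were moderate: 2026 of the 2312 lay under 2-fold, with a median size of log2 0.34 among the higher genes and 0.52 among the lower. Among higher genes 333 differed by less than 1.2-fold, 652 by 1.2 to 1.5-fold, 140 by 1.5 to 2-fold, 66 by 2 to 4-fold and 20 by more. Among lower genes these counts were 163, 453, 285, 191 and 9, so changes of 1.5 to 4-fold were more common on the lower side. Every host library lay above every control library for 1.91% of the genes, and below for 0.696%. The median log2 fold change over all genes tested was 0.01, the value beside which the list medians below are to be read. Counts of list members that passed are likewise to be read beside the 8.61% higher and 7.82% lower among all genes. Levels are given as the lowest, the median and the highest library of a group, in CPM after TMM scaling, and fold changes as log2 of host over control. A dagger marks a passed gene whose call was lost in at least 1 fit that left out 1 library. Square brackets give the log2 fold change with the day of death as a block, in 5 pairs of mice, only for genes whose call changed with it, lost where the gene had passed and gained where it had not. Of the genes named below that did not pass with all libraries, Ly6c2, Mpo and Prg2 passed without control N051, and Vcam1, Fdft1, Irf7, Camp, Fpr1, S100a8 and S100a9 without host N269.

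Summed counts of 22 fixed lists of lineage genes showed more classical monocyte and neutrophil-precursor RNA and less B-lineage, plasmacytoid dendritic and, at the median, mature neutrophil RNA in hosts, and are described without a test. Classical monocyte genes took 0.549, 0.588 and 0.644% of counts in host libraries and 0.375, 0.445 and 0.5258% in controls, and the groups did not overlap. Primary granule genes, which neutrophils make at the promyelocyte stage, took 0.801, 1.07 and 1.28% of counts in host libraries and 0.539, 0.840 and 0.926% in controls, and 6 of 7 hosts lay above every control. Mpo, which did not pass as a single gene, gave 53.7% of the counts of this list. Mature B genes took 0.0941, 0.168 and 0.197% of counts in host libraries and 0.198, 0.322 and 0.389% in controls, without overlap, and host N269 held the lowest value. Ighm gave 54.4% of the counts of this list. In bulk libraries a lower share can come from fewer cells of a type or from less RNA per cell, and these cannot be told apart.

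Plasmacytoid dendritic genes took 0.0357, 0.0464 and 0.0504% of counts in host libraries and 0.0483, 0.0687 and 0.0721% in controls, with 5 of 7 hosts below every control. The conventional dendritic list took 0.0950, 0.0992 and 0.108% of counts in host libraries and 0.104, 0.118 and 0.146% in controls, where 6 of 7 hosts lay below, and 56.5% of its counts came from Cd24a, a surface glycoprotein that B-cell precursors also carry. Shares can hide the changes of single members where an abundant gene gives much of the sum, as in the macrophage and osteoclast lists below. Mature neutrophil genes took 1.63, 2.33 and 4.32% of counts in host libraries and 2.34, 3.34 and 4.14% in controls, with hosts lower at the median and N269 highest of all. Nonclassical monocyte genes took 0.174, 0.190 and 0.208% of counts in host libraries and 0.179, 0.205 and 0.229% in controls, where no host lay above every control and 2 lay below. Nr4a1, which is also on the immediate early list, gave 40.45% of the counts of this list. NK and cytotoxic genes took 0.0228, 0.0419 and 0.0469% of counts in host libraries and 0.0279, 0.0392 and 0.0482% in controls, which overlapped. T cell genes (0.0126, 0.0260 and 0.0311% of counts in host libraries and 0.0200, 0.0287 and 0.0424% in controls) and late erythroid genes (0.0352, 0.0444 and 0.0657% of counts in host libraries and 0.0325, 0.0477 and 0.0635% in controls) overlapped widely. Stromal and endothelial genes stayed at 0.00155 to 0.00279% in hosts and 0.00151 to 0.00234% in controls, with 3 hosts above every control. Their part in other results was not tested.

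**Figure D1:**
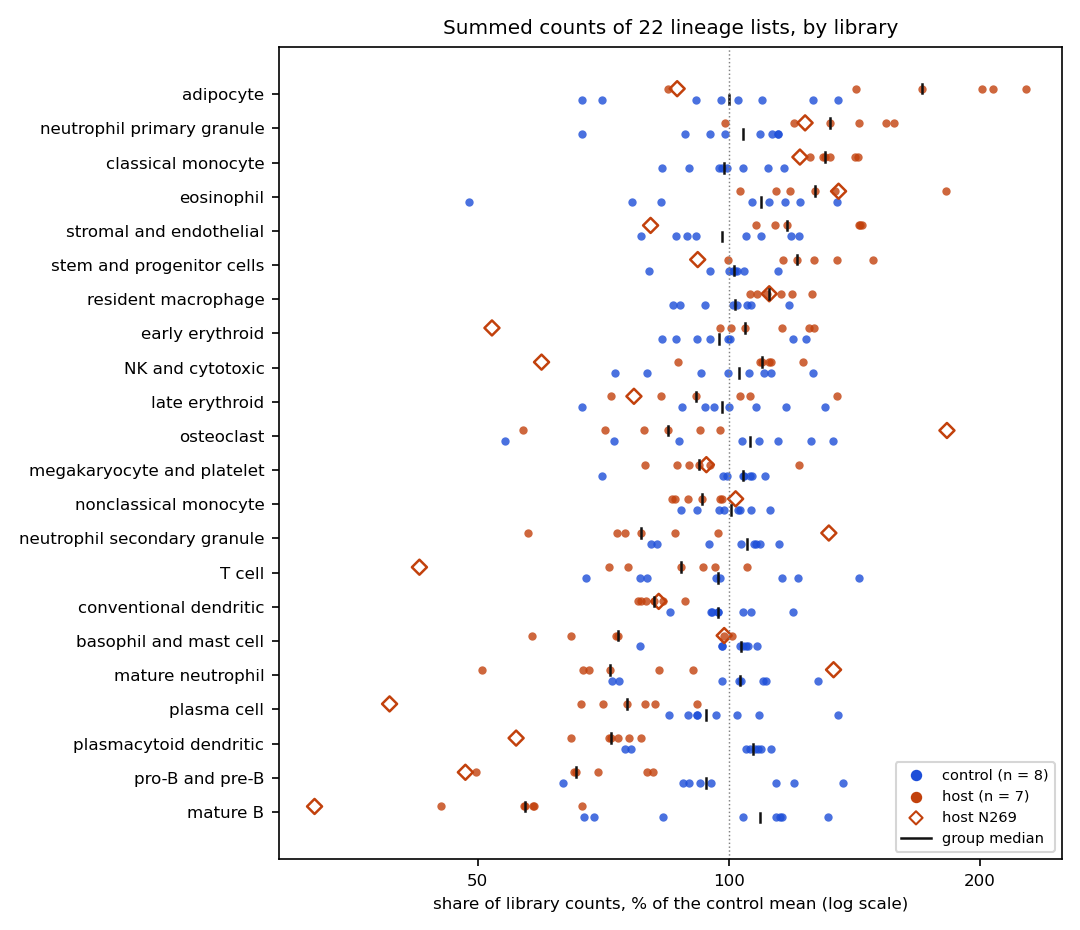
Summed counts of each lineage list in each library, as a percent of the control mean of that list (log axis), for 8 control libraries (blue), 7 host libraries (orange) and host N269 (open diamond), with group medians as bars. Classical monocyte and mature B genes separate the groups without overlap, and N269 lies at the edge of the hosts for several lists, highest for mature neutrophil and osteoclast and lowest for mature B.

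Most classical monocyte genes were higher in host cells. Of 18 classical monocyte genes 11 passed as higher and 0 as lower, with a median of log2 0.43. Vcan is among these 11, and with the mature B share as a covariate 1 of the 18 passed as higher. Ccr2, the receptor that brings monocytes out of marrow toward inflamed tissue, stood at 181, 227 and 253 CPM in hosts and 87.7, 122 and 181 CPM in controls. Ccr2 was higher by log2 0.81 ± 0.13 (SE, edgeR adjusted p = 0.000698), with 6 of 7 hosts above every control. Ms4a6c, a membrane protein of monocytes, stood at 167, 191 and 207.8 CPM in hosts and 115, 124 and 154 CPM in controls. Ms4a6c was higher by log2 0.51 ± 0.07 (SE, edgeR adjusted p = 0.000383), with no overlap between the groups. Csf1r, the receptor for the growth factor that keeps monocytes and macrophages alive, stood at 243, 294 and 301 CPM in hosts and 106, 193 and 259 CPM in controls. Csf1r was higher by log2 0.56 ± 0.13 (SE, edgeR adjusted p = 0.00762), with 6 of 7 hosts above every control. Its ligand gene Csf1 did not pass, at -0.16. The protease gene Ctss was higher by 0.44 and Tgfbi, a secreted matrix protein, by 0.55 (0.46 without N269, its highest library). Ms4a4c was at 0.36 and Hpse, which cuts heparan sulfate, at 0.32. Ly6c2, the surface protein that defines these monocytes, stood at 825, 874 and 982 CPM in hosts and 571, 708 and 1026 CPM in controls, and did not pass (log2 0.29 [0.38], edgeR adjusted p = 0.0633).

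Genes of nonclassical, patrolling monocytes moved apart, with 5 of 15 higher and 2 lower, and a median of 0.02. Cd300e, an activating receptor, stood at 5.60, 14.5 and 18.5 CPM in hosts and 0.777, 1.79 and 2.07 CPM in controls. Cd300e was higher by log2 2.88 ± 0.23 (SE, edgeR adjusted p = 1.17e-06), with no overlap between the groups. Clec4a3 at 0.87 and Adgre4 at 0.55 [0.45], both surface receptors of these cells, were also higher. Nr4a1, the nuclear receptor on which they depend, stood at 632, 673 and 785 CPM in hosts and 761, 894 and 1096 CPM in controls. Nr4a1 was lower, at log2 -0.38 ± 0.08 (SE, edgeR adjusted p = 0.00313), with 6 of 7 hosts below every control. Cd36, a scavenger receptor for lipids, stood at 4.30, 4.73 and 6.44 CPM in hosts and 6.64, 9.30 and 12.97 CPM in controls. Cd36 was lower, at log2 -0.87 ± 0.14 (SE, edgeR adjusted p = 0.000895), with no overlap between the groups.

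The resident macrophage list had 10 of 15 tested genes higher and 0 lower, with a median of 0.62. Among these 10 are the C1q chain genes C1qa, C1qb and C1qc, and Cd5l. Without host N269 11 were higher, and with the mature B share as a covariate 5. Its summed share was 0.0820, 0.0864 and 0.0971% of counts in host libraries and 0.0662, 0.0785 and 0.0912% in controls, which overlapped. Trf, the iron carrier transferrin, makes up 39.1% of that share and did not pass (log2 -0.25). Cd5l, which macrophages secrete, stood at 0.658, 2.32 and 5.44 CPM in hosts and 0, 0.0615 and 0.177 CPM in controls, and no fold is given, since it was at 0 counts in 2 controls. Cd5l cleared the count filter through its host levels, which favoured its call as higher. Axl, a receptor by which macrophages take up dying cells, stood at 9.22, 15.7 and 25.6 CPM in hosts and 5.86, 7.46 and 11.4 CPM in controls. Axl was higher by log2 0.90 ± 0.21 (SE, edgeR adjusted p = 0.00835), with 5 of 7 hosts above every control. Mrc1, the mannose receptor, stood at 6.15, 8.95 and 12.9 CPM in hosts and 5.38, 5.66 and 7.24 CPM in controls. Mrc1 was higher by log2 0.63 [0.44], with 5 of 7 hosts above every control. Hmox1, which breaks down haem, stood at 22.3, 26.6 and 32.9 CPM in hosts and 14.9, 17.3 and 21.2 CPM in controls. Hmox1 was higher by log2 0.62, with no overlap between the groups. Cd163, the scavenger receptor for haemoglobin, was at log2 0.82 [0.61]. Slc40a1, the iron exporter of macrophages that recycle red cells, did not pass, at 0.05. Vcam1, a marker of marrow macrophages and stroma, missed the threshold at 0.33 [0.35] (edgeR adjusted p = 0.0503). Apoe was higher by 0.40 [0.36] and the common macrophage marker Adgre1, which encodes F4/80, by 0.33† [0.35].

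Of 7 osteoclast genes tested 4 were higher and 0 lower. Ocstamp, needed for the fusion of osteoclast precursors, stood at 2.21, 3.86 and 4.61 CPM in hosts and 1.16, 1.65 and 2.35 CPM in controls. Ocstamp was higher by log2 1.18 ± 0.17 (SE, edgeR adjusted p = 0.000330), with 6 of 7 hosts above every control. Acp5, the tartrate-resistant acid phosphatase, stood at 13.8, 23.6 and 34.5 CPM in hosts and 10.6, 15.4 and 18.5 CPM in controls. Acp5 was higher by log2 0.70, with 6 of 7 hosts above every control. Tnfrsf11a, the receptor RANK, was at 0.50† [0.32]. The count of 4 went to 2 without any 1 of host N279, host N014, control N051 or control N093. The summed osteoclast share overlapped and did not follow these genes. Mmp9, a protease that neutrophils also make, gave 87.6% of it, and its highest value, 0.217%, belonged to host N269.

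Receptors for antibodies moved both ways, with 2 of 10 Fc receptor genes higher and 4 lower. Fcgr1, the high-affinity IgG receptor of monocytes and macrophages, stood at 9.09, 12.502 and 14.05 CPM in hosts and 3.29, 4.76 and 6.91 CPM in controls. Fcgr1 was higher by log2 1.26 ± 0.16 (SE, edgeR adjusted p = 0.000116), with no overlap between the groups. Fcgr4, an activating IgG receptor, stood at 29.6, 42.4 and 62.4 CPM in hosts and 15.1, 22.7 and 29.6 CPM in controls. Fcgr4 was higher by log2 1.00, with 6 of 7 hosts above every control. The lower members were Fcer2a, Fcrl1, Fcrla and Fcmr, all known from B cells. Of 20 integrin and adhesion genes 6 were higher and 0 lower. Itgad, the alpha D chain of beta-2 integrins, stood at 5.27, 12.1 and 17.8 CPM in hosts and 0.774, 1.44 and 2.50 CPM in controls. Itgad was higher by log2 2.82, with no overlap between the groups. F11r, a junctional adhesion molecule, stood at 8.20, 12.3 and 17.1 CPM in hosts and 2.36, 3.23 and 5.16 CPM in controls. F11r was higher by log2 1.86, with no overlap between the groups. Itgax, a chain of dendritic cells and monocytes, stood at 30.6, 44.5 and 53.1 CPM in hosts and 20.7, 29.9 and 35.5 CPM in controls. Itgax was higher by log2 0.53 [0.40], with 5 of 7 hosts above every control. Itgb1, the beta-1 chain shared by many integrins, stood at 235, 249 and 267 CPM in hosts and 189, 219 and 229 CPM in controls. Itgb1 was higher by log2 0.23, with no overlap between the groups.

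Among complement genes other than C1q, 2 of 11 were higher and 1 lower. C4b, a component that acts after C1q in the same pathway, stood at 4.65, 6.73 and 9.40 CPM in hosts and 0.774, 1.18 and 2.92 CPM in controls. C4b was higher by log2 2.27 ± 0.24 (SE, edgeR adjusted p = 1.35e-05), with no overlap between the groups. Cd55, which removes the enzyme complexes of complement from the cell surface, stood at 40.1, 50.7 and 78.5 CPM in hosts and 73.8, 101 and 151 CPM in controls. Cd55 was lower, at log2 -0.996 ± 0.16 (SE, edgeR adjusted p = 0.000919), with 6 of 7 hosts below every control. Of 20 chemokine and receptor genes 4 were higher and 4 lower, and the lower count was 7 without host N203. Ccl9, a chemokine of myeloid cells, stood at 151, 168.4 and 187.4 CPM in hosts and 102, 115.9 and 151 CPM in controls. Ccl9 was higher by log2 0.51, with no overlap between the groups. Cxcl16, a membrane-bound chemokine and scavenger receptor, stood at 7.12, 17.99 and 19.7 CPM in hosts and 6.38, 8.64 and 10.9 CPM in controls. Cxcl16 was higher by log2 0.80, with 6 of 7 hosts above every control. Ccl3, an inflammatory chemokine, fell by 0.52† [-0.45], and Ccr7, which guides lymphocytes and dendritic cells to lymph nodes, by 1.23. Cxcr4, which holds cells in marrow, did not pass at -0.20 (edgeR adjusted p = 0.0809).

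Lysosomal genes were higher by small steps: 10 of 26 passed as higher and 0 as lower, with a median of 0.20. With the day of death as a block 16 were higher. Ctsz, a cathepsin that trims peptides from their end, stood at 226, 241 and 279.7 CPM in hosts and 166, 177 and 186.98 CPM in controls. Ctsz was higher by log2 0.49 ± 0.06 (SE, edgeR adjusted p = 3.75e-05), with no overlap between the groups. Ctsa, which protects other lysosomal enzymes, stood at 163, 186.9 and 206 CPM in hosts and 119, 132 and 147 CPM in controls. Ctsa was higher by log2 0.51 ± 0.06 (SE, edgeR adjusted p = 0.000117), with no overlap between the groups. Lgmn, legumain, stood at 39.7, 57.1 and 61.2 CPM in hosts and 31.3, 34.1 and 44.4 CPM in controls. Lgmn was higher by log2 0.55 ± 0.07 (SE, edgeR adjusted p = 0.000105), with 6 of 7 hosts above every control. Lamp1, a main protein of the lysosomal membrane, stood at 528, 544 and 560.5 CPM in hosts and 387, 431 and 479 CPM in controls. Lamp1 was higher by log2 0.35, with no overlap between the groups. Gusb was higher by 0.38, Cd68 by 0.31 and Lipa, the acid lipase that frees cholesterol from lipoproteins, by 0.30. Ctsb was at 0.25.

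Lipid genes moved in opposite directions, with uptake, storage and efflux genes higher and cholesterol synthesis genes lower in most host libraries. Of 18 lipid uptake and efflux genes 11 were higher and 1, Cd36, lower, with a median of 0.39. Nr1h3, the liver X receptor alpha that senses oxysterols, stood at 1.92, 3.96 and 4.50 CPM in hosts and 0.710, 1.02 and 1.41 CPM in controls. Nr1h3 was higher by log2 1.76 ± 0.19 (SE, edgeR adjusted p = 2.20e-05), with no overlap between the groups. Abca1, a cholesterol exporter, stood at 75.9, 161 and 253 CPM in hosts and 43.9, 71.9 and 106 CPM in controls. Abca1 was higher by log2 1.07, with 5 of 7 hosts above every control. Abcg1, its partner in export, stood at 73.1, 149 and 176 CPM in hosts and 69.5, 95.8 and 107 CPM in controls. Abcg1 was higher by log2 0.57†, with 5 of 7 hosts above every control. Host N269 was not among the raised ones for either, at 75.9 and 73.1 CPM. Lrp1, a receptor for lipoproteins and other ligands, stood at 316, 433 and 458 CPM in hosts and 76.6, 228 and 276.7 CPM in controls. Lrp1 was higher by log2 1.01, with no overlap between the groups. Plin2, which coats lipid droplets, stood at 229.9, 243 and 291 CPM in hosts and 167, 181 and 231 CPM in controls. Plin2 was higher by log2 0.41, with 6 of 7 hosts above every control. Scarb1, the receptor for high-density lipoprotein, stood at 86.4, 95.2 and 110.2 CPM in hosts and 52.9, 78.9 and 85.6 CPM in controls. Scarb1 was higher by log2 0.35, with no overlap between the groups.

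Fabp4, a fatty acid carrier of macrophages and fat cells, stood at 3.05, 5.93 and 9.99 CPM in hosts and 0.435, 1.19 and 1.59 CPM in controls. Fabp4 was higher by log2 2.34 ± 0.25 (SE, edgeR adjusted p = 1.35e-05), with no overlap between the groups. Pparg, a nuclear receptor that drives it, stood at 1.88, 4.36 and 5.13 CPM in hosts and 1.02, 2.22 and 2.65 CPM in controls. Pparg was higher by log2 0.90, with 6 of 7 hosts above every control. These were the 2 genes that passed among 3 tested of a fat cell list of 9. The summed share of that list was 0.00225, 0.00454 and 0.00606% of counts in host libraries and 0.00177, 0.00267 and 0.00360% in controls, and its part in these results was not tested.

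Of 21 cholesterol synthesis genes 13 were lower and 1 higher, with a median of -0.48, the lowest median of the pathway lists. Host N269 stood apart here, and without it 14 were lower with a median of -0.59. Srebf2, which encodes SREBP2, was read at 127 to 143 CPM in the other 6 hosts, at 225 CPM in N269 and at 166, 233 and 257 CPM in controls. The log2 fold change of Srebf2 was -0.60 ± 0.11 (SE, edgeR adjusted p = 0.00206), and -0.73 without N269. Sqle, squalene epoxidase, a rate-limiting step, was read at 3.69 to 5.32 CPM in the other 6 hosts, at 10.0 CPM in N269 and at 7.17, 9.27 and 12.49 CPM in controls. The log2 fold change of Sqle was -0.89 ± 0.18 (SE, edgeR adjusted p = 0.00404), and -1.13 without N269. In both the other 6 hosts lay below every control and N269 within the control range.

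Cyp51 fell by 0.75, Idi1 by 0.69 and Insig1, the sterol-sensing retention protein, by 0.48. Hmgcs1, Pmvk, Hsd17b7, Msmo1, Lss and Sc5d fell by 0.46†, 0.54†, 0.63† [-0.63], 0.54 [-0.42], 0.51† and 0.48 [-0.36]. For 8 of the 11 lower genes named here all 6 other hosts lay below every control. Set against the control mean of each gene, the median over these 11 genes was 54.3 to 63.0% in those 6 hosts, 104% in N269 and 86.3 to 107% in controls. That is a description only, since these genes were chosen by passing. Ebp, a sterol isomerase, was the one higher member at 0.23 [0.24], and Fdft1, Nsdhl, Mvd and Dhcr7 did not pass, at -0.17, -0.16, 0.08 and 0.05. With the day of death as a block 9 were lower, in males alone 12 and in females alone 0. Over all genes males alone passed 479 and females alone 121, and N269 is 1 of 3 female hosts. The cause of the difference between these fits was not tested. With the mature B share as a covariate 8 passed as lower. That share does not overlap between the groups, so this fit cannot tell B-cell RNA and group apart.

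**Figure D2:**
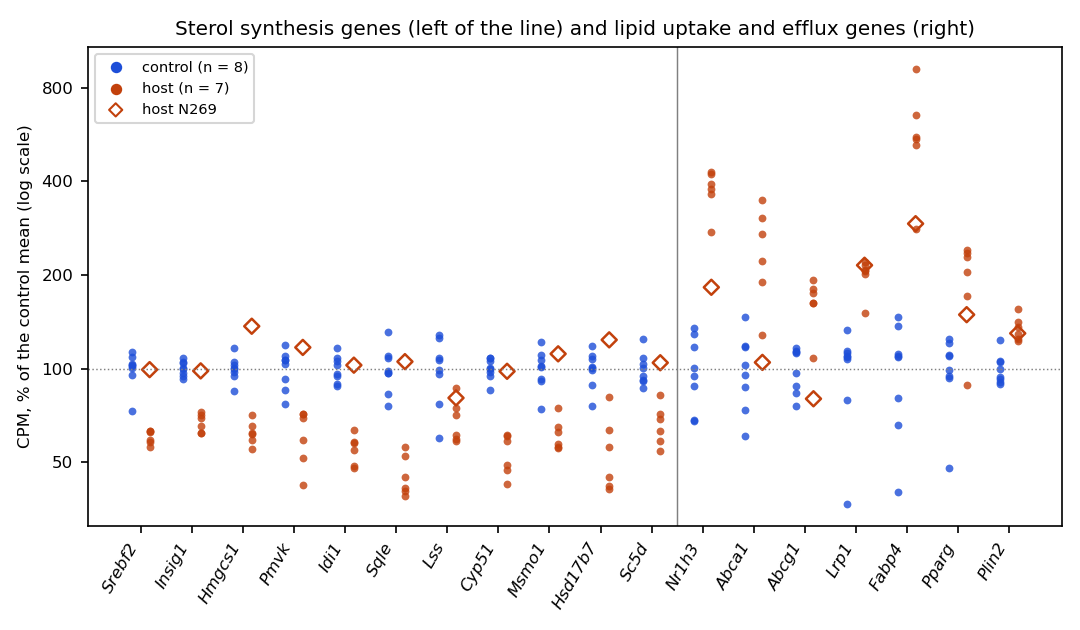
CPM of 11 sterol synthesis genes and of some lipid genes that passed as higher, as a percent of the control mean of each gene (log axis). The lipid genes shown are Nr1h3, Abca1, Abcg1, Lrp1, Fabp4, Pparg and Plin2, and Cd36, which passed as lower, is not shown. Points are 8 control libraries (blue), 7 host libraries (orange) and host N269 (open diamond). The other 6 hosts lie below the controls for 8 of the 11 sterol genes while N269 lies within or above the control range for each of them. The lipid genes shown, chosen among higher ones, lie higher in most hosts.

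Promoters, here 250 bases before to 50 after a RefSeq start site (build GRCm38.p6), were searched on both strands because members of these lists moved together. The binding motif of SREBP proteins, TCACNCCAC, was found for 1 of 16 cholesterol synthesis genes with a promoter in the table (6.25%), Hmgcs1, against 1.34% of the tested genes. A missing match says only that these letters are not in this window. For the lysosomal list the core of the CLEAR motif, TCACGTGA, a palindrome, was found for Ctsd, Mcoln1 and Ctsa, 3 of 19 (15.8%), against 2.21% of the tested genes. Of these only Ctsa passed. The windows are shown, with the motif in capitals and coordinates of GRCm38.p6, for the sterol gene and for both matches of Ctsa.
Hmgcs1, chr13:119690204-119690232, plus strand: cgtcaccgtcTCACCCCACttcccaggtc
Ctsa first match, chr2:164833750-164833777, plus strand: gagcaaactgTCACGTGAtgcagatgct
Ctsa second match, chr2:164833767-164833794, plus strand: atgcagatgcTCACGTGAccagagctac

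Several lists of protein synthesis, protein breakdown and mitochondrial genes held members that were higher by small steps in host cells, while no cytosolic ribosomal or mitochondrially encoded gene passed. Aminoacyl-tRNA synthetases, which load amino acids onto their tRNAs, had 14 of 20 members higher and 0 lower, with a median of 0.25. The count was 8 without host N014, 9 without host N005 and 9 without control N208 or control N277. Yars, for tyrosine, stood at 31.2, 34.3 and 48.5 CPM in hosts and 22.5, 26.4 and 29.6 CPM in controls. Yars was higher by log2 0.47 ± 0.09 (SE, edgeR adjusted p = 0.00280), with no overlap between the groups. Nars, for asparagine, stood at 159, 170.4 and 219 CPM in hosts and 132, 142 and 153 CPM in controls. Nars was higher by log2 0.34 ± 0.07 (SE, edgeR adjusted p = 0.00321), with no overlap between the groups. Gars, for glycine, stood at 74.5, 82.2 and 95.7 CPM in hosts and 54.4, 66.8 and 72.3 CPM in controls. Gars was higher by log2 0.35, with no overlap between the groups. Farsb, for phenylalanine, stood at 22.8, 27.1 and 36.2 CPM in hosts and 17.7, 21.0 and 24.4 CPM in controls. Farsb was higher by log2 0.43, with 6 of 7 hosts above every control. Aars was at 0.39†, Kars at 0.27 [0.23] and Lars at 0.26, so each member named here differed by less than 1.5-fold.

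Synthetase genes are among the targets of ATF4, the factor that cells raise when amino acids run short or unfolded protein collects, and the element it binds was searched as TTGCATCA. It was found in the promoters of 4 of 12 synthetase genes that matched the RefSeq table (33.3%), against 0.776% of the tested genes. Among these were Iars, Tars and Yars, each higher in host cells. In the stress response list 3 of 22 genes held it (13.6%), of which only Chac1 passed. The windows of these genes and of Chac1 are given with the element in capitals. In Yars it lies on the strand opposite to the one printed, so the printed strand reads TGATGCAA.
Iars, chr13:49682127-49682154, plus strand: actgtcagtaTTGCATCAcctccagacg
Tars, chr15:11399656-11399683, minus strand: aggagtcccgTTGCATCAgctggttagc
Yars, chr4:129189896-129189923, plus strand: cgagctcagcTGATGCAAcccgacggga
Chac1, chr2:119351039-119351066, plus strand: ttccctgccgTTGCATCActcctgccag

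Of 23 genes of the unfolded protein and integrated stress response 9 were higher and 0 lower, with a median of 0.18. Psat1, an enzyme of serine synthesis, stood at 70.7, 89.4 and 109.7 CPM in hosts and 62.8, 66.4 and 74.5 CPM in controls. Psat1 was higher by log2 0.38 ± 0.08 (SE, edgeR adjusted p = 0.00328), with 6 of 7 hosts above every control. Phgdh, the first enzyme of that pathway, stood at 81.5, 114 and 142 CPM in hosts and 74.2, 79.7 and 88.4 CPM in controls. Phgdh was higher by log2 0.44 [0.31], with 5 of 7 hosts above every control. Chac1, which degrades glutathione, stood at 5.39, 7.99 and 14.9 CPM in hosts and 3.42, 4.46 and 6.82 CPM in controls. Chac1 was higher by log2 0.84, with 4 of 7 hosts above every control. Sdf2l1, a partner of chaperones in the endoplasmic reticulum, stood at 63.6, 66.9 and 103 CPM in hosts and 45.7, 52.9 and 60.7 CPM in controls. Sdf2l1 was higher by log2 0.53, with no overlap between the groups. Asns, asparagine synthetase, at 0.49†, Trib3 at 0.55† [0.61], Pdia3 at 0.29 and the chaperone Calr at 0.32 were higher. The regulators themselves did not pass: Atf4 was at 0.06, Ddit3 at -0.06, Xbp1 at 0.05 and the chaperone Hspa5 at 0.04.

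Of 38 proteasome genes 16 were higher and 0 lower, with a median of 0.20 (9 without control N208). Psmb10, a subunit of the immunoproteasome that interferon-gamma induces, stood at 48.7, 54.9 and 64.3 CPM in hosts and 37.8, 43.7 and 48.5 CPM in controls. Psmb10 was higher by log2 0.37, with no overlap between the groups. Psmb8, another such subunit, stood at 111, 125 and 154 CPM in hosts and 86.1, 105 and 119 CPM in controls. Psmb8 was higher by log2 0.35, with 6 of 7 hosts above every control. Psmd1 and Psmd2 of the regulatory cap were at 0.28 and 0.30. Of 19 citric acid cycle genes 11 were higher and 0 lower. That count was 5 without host N014, 7 without host N005, 6 without control N208 or N288 and 7 without control N280. Idh2, which makes NADPH in mitochondria, stood at 74.7, 96.2 and 115 CPM in hosts and 55.9, 72.9 and 78.5 CPM in controls. Idh2 was higher by log2 0.42 ± 0.09 (SE, edgeR adjusted p = 0.00645), with 6 of 7 hosts above every control. Dlat, of the pyruvate dehydrogenase complex, stood at 41.5, 45.4 and 52.7 CPM in hosts and 25.9, 36.7 and 40.5 CPM in controls. Dlat was higher by log2 0.39, with no overlap between the groups. Idh3a at 0.32, Mdh2 at 0.22 and citrate synthase Cs at 0.22† [0.14] were also higher.

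Nuclear genes of oxidative phosphorylation had 18 of 75 higher and 0 lower, with a median of 0.16, and the higher count was 46 without control N051 and 11 without control N208. Sdhc, of complex II, stood at 51.5, 61.7 and 84.2 CPM in hosts and 42.3, 47.1 and 51.4 CPM in controls. Sdhc was higher by log2 0.43, with no overlap between the groups. Ndufa9, of complex I, stood at 47.5, 53.8 and 59.1 CPM in hosts and 39.2, 41.4 and 47.4 CPM in controls. Ndufa9 was higher by log2 0.33, with no overlap between the groups. None of 11 mitochondrially encoded genes passed with edgeR (0 at an unadjusted p below 0.05), with a median of -0.11, and DESeq2 passed 0 as higher and 0 as lower. Mitochondrial ribosomal proteins had 23 of 77 higher and 0 lower, among them Mrps2 at 0.42 [0.30] and Mrps23 at 0.32. That count was 11 without host N014, 15 without host N005, 12 without control N208 and 37 without control N051. By contrast 0 of 81 cytosolic ribosomal protein genes passed with edgeR in either direction (2 unadjusted), with a median of 0.04, and DESeq2 passed 0 as higher and 0 as lower. Their summed share was 4.06 to 6.25% in hosts and 4.18 to 6.68% in controls.

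Of 44 translation initiation genes 11 were higher and 1 lower, such as Eif6 at 0.29, and 4 were higher without host N014. Of 22 ribosome biogenesis genes 7 were higher, 12 without host N269 and 3 without host N014. Fatty acid oxidation had 7 of 17 genes higher and 0 lower. Acaa2, the last enzyme of the mitochondrial cycle, stood at 39.1, 44.5 and 54.0 CPM in hosts and 29.0, 33.3 and 35.3 CPM in controls. Acaa2 was higher by log2 0.48 ± 0.07 (SE, edgeR adjusted p = 0.000494), with no overlap between the groups. Cpt1a, which admits fatty acids to mitochondria, stood at 133, 161 and 194 CPM in hosts and 99.4, 124 and 146 CPM in controls. Cpt1a was higher by log2 0.38, with 6 of 7 hosts above every control. With the mature B share as a covariate 0 synthetase, 0 proteasome, 0 citric acid cycle and 0 oxidative phosphorylation genes passed as higher.

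**Figure D3:**
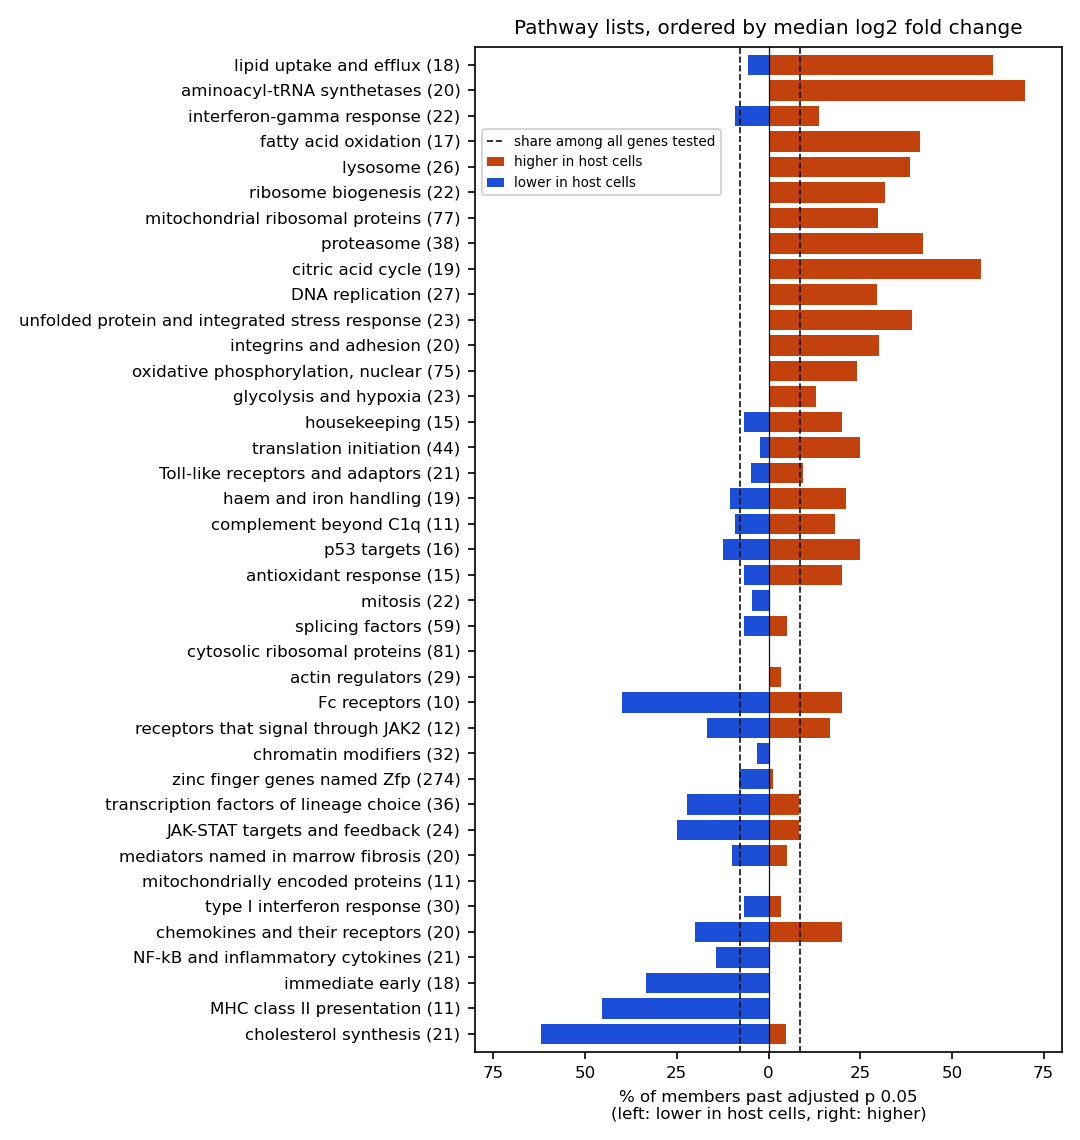
Percent of the tested members of each pathway list that passed as higher (orange, to the right) or lower (blue, to the left) in host cells, with the number tested in brackets, ordered by the median log2 fold change of the list; dashed lines mark 8.61% and 7.82%, the shares among all 14073 genes. Synthetase, lipid uptake and citric acid cycle genes reach furthest to the right and cholesterol synthesis genes furthest to the left, and no cytosolic ribosomal or mitochondrially encoded gene passed.

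DNA replication genes had 8 of 27 higher and 0 lower with a median of 0.19. Gins1, of the replicative helicase, stood at 12.8, 16.9 and 19.3 CPM in hosts and 10.8, 12.7 and 14.004 CPM in controls. Gins1 was higher by log2 0.40, with 6 of 7 hosts above every control. Mcm10, which starts that helicase, was at 0.28. Of 22 mitosis genes 0 were higher and 1 was lower, Cenpf, by 0.26† [-0.25]. Among 16 p53 targets 4 were higher and 2 lower. Phlda3, which restrains the kinase Akt, stood at 0.778, 1.84 and 2.74 CPM in hosts and 0.272, 0.355 and 0.839 CPM in controls. Phlda3 was higher by log2 1.87 ± 0.27 (SE, edgeR adjusted p = 0.000390), with 6 of 7 hosts above every control. Phlda3 also cleared the count filter through its host levels, which favoured this direction, so these values are a description only. Pmaip1, a trigger of cell death, stood at 59.6, 71.6 and 90.4 CPM in hosts and 34.4, 47.1 and 61.1 CPM in controls. Pmaip1 was higher by log2 0.67, with 6 of 7 hosts above every control. Gdf15, a secreted stress factor, stood at 0.419, 1.13 and 2.28 CPM in hosts and 0.272, 0.487 and 1.09 CPM in controls. Gdf15 was higher by log2 1.12† [1.10], with 4 of 7 hosts above every control. Trp53inp1, which aids p53 and autophagy, stood at 66.0, 78.4 and 97.9 CPM in hosts and 97.1, 131 and 176 CPM in controls. Trp53inp1 was lower, at log2 -0.71 ± 0.11 (SE, edgeR adjusted p = 0.000526), with 6 of 7 hosts below every control. Sesn1 fell by 0.36† [-0.35], so the list did not move in 1 direction.

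Granulocyte genes differed by stage, with 4 of 11 primary granule genes higher and none lower (median 0.33; 7 higher with the day as a block). None of 15 secondary granule genes (median -0.15) and none of 20 mature neutrophil genes (median -0.26) passed with edgeR. At an unadjusted p below 0.05 there were 1 and 3, and DESeq2 passed 1 and 1 as lower. Without host N269, edgeR passed 6 secondary granule and 8 mature neutrophil genes as lower. Prtn3, proteinase 3, stood at 945, 1308 and 1696 CPM in hosts and 751, 895 and 1123 CPM in controls. Prtn3 was higher by log2 0.56 ± 0.11 (SE, edgeR adjusted p = 0.00363), with 5 of 7 hosts above every control. Ctsc, the protease that activates it, stood at 294, 365 and 385 CPM in hosts and 209, 243 and 289 CPM in controls. Ctsc was higher by log2 0.56 ± 0.08 (SE, edgeR adjusted p = 0.000223), with no overlap between the groups. Ctsg was at 0.42 and Prss57 at 0.36. Mpo, myeloperoxidase, stood at 4266, 5419 and 7110.3 CPM in hosts and 1741, 4669 and 5197 CPM in controls, the lowest being control N051, and did not pass (log2 0.45 [0.34], edgeR adjusted p = 0.0721). Without N051 it passed, at log2 0.32 (edgeR adjusted p = 0.0338). Camp, an antimicrobial peptide gene, stood at 2155, 2582 and 4209 CPM in hosts and 2866, 3856 and 5190.3 CPM in controls. Camp was at log2 -0.39 with all libraries and -0.50 without N269 (edgeR adjusted p = 0.0164 without it). Fpr1, a receptor for bacterial peptides, stood at 16.6, 28.5 and 74.9 CPM in hosts and 25.5, 49.0 and 65.5 CPM in controls, with N269 the highest of all 15. Fpr1 was at log2 -0.55 with all libraries and -0.83 without N269 (edgeR adjusted p = 0.00388 without it).

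Of 9 eosinophil genes 0 were higher and 2 lower, Il5ra, the receptor chain for their growth factor, by 1.02 [-0.99] and the lipoxygenase Alox15 by 0.66† [-0.64]. The summed share, mostly from the granule gene Prg2 (log2 0.51, not passed), was 0.0219, 0.0269 and 0.0386% of counts in host libraries and 0.0103, 0.0232 and 0.0286% in controls. Of 11 basophil and mast cell genes 0 were higher and 2 lower. Osm, the cytokine oncostatin M, stood at 245, 293 and 365 CPM in hosts and 299.6, 382 and 500.3 CPM in controls. Osm was lower, at log2 -0.41†, with 4 of 7 hosts below every control. Cyp11a1, a steroid-making enzyme of basophils and mast cells, stood at 12.53, 17.1 and 30.7 CPM in hosts and 20.6, 27.0 and 38.8 CPM in controls. Cyp11a1 was lower, at log2 -0.53† [-0.49], with 4 of 7 hosts below every control.

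Plasmacytoid dendritic cells are the main source of type I interferon, and 6 of 13 of their genes were lower and 0 higher, with a median of -0.38. Siglech, their defining lectin, stood at 20.4, 24.5 and 26.8 CPM in hosts and 30.2, 44.4 and 68.4 CPM in controls. Siglech was lower, at log2 -0.89 ± 0.13 (SE, edgeR adjusted p = 0.000489), with no overlap between the groups. Klk1, a kallikrein protease, stood at 0.283, 1.03 and 1.44 CPM in hosts and 1.90, 3.92 and 6.49 CPM in controls. Klk1 was lower, at log2 -1.99, with no overlap between the groups. Ccr9, a gut-homing receptor, stood at 9.58, 12.2 and 17.9 CPM in hosts and 11.8, 25.3 and 32.7 CPM in controls. Ccr9 was lower, at log2 -0.90, with 3 of 7 hosts below every control. Spib, a factor these cells share with B cells, stood at 43.1, 53.8 and 85.6 CPM in hosts and 73.8, 159.6 and 194 CPM in controls. Spib was lower, at log2 -1.41 ± 0.20 (SE, edgeR adjusted p = 0.000388), with 6 of 7 hosts below every control. Tcf4, their master regulator, did not pass at -0.16 [-0.28], nor did Irf7 at -0.24. With the mature B share as a covariate none of the list passed, and Siglech was at -0.44 (edgeR adjusted p = 0.251). Conventional dendritic genes split, 2 higher and 2 lower of 12. Batf3, a factor of their cross-presenting subset, stood at 1.16, 2.17 and 3.96 CPM in hosts and 0.452, 0.967 and 1.36 CPM in controls. Batf3 was higher by log2 1.41, with 6 of 7 hosts above every control. Clec10a, a lectin of the other subset, stood at 13.1, 17.1 and 21.6 CPM in hosts and 8.49, 11.4 and 14.6 CPM in controls. Clec10a was higher by log2 0.59 [0.45], with 6 of 7 hosts above every control. Irf4, also a factor of B and plasma cells, fell by 1.27.

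Within the B lineage, 14 of 18 pro-B and pre-B genes, 22 of 23 mature B genes and 7 of 18 plasma cell genes were lower and none higher. Pax5, which commits cells to the lineage, stood at 21.4, 47.7 and 91.5 CPM in hosts and 54.0, 115.8 and 165 CPM in controls. Pax5 was lower, at log2 -1.39 ± 0.22 (SE, edgeR adjusted p = 0.000706), with 5 of 7 hosts below every control. Ebf1, which acts before it, stood at 11.5, 30.5 and 46.9 CPM in hosts and 28.3, 57.1 and 90.0 CPM in controls. Ebf1 was lower, at log2 -1.17, with 3 of 7 hosts below every control. Of 36 transcription factors of lineage choice 8 were lower and 3 higher, the latter a share near that of all genes. Lef1, of lymphoid precursors and T cells, stood at 3.65, 13.7 and 16.7 CPM in hosts and 18.2, 25.1 and 30.1 CPM in controls. Lef1 was lower, at log2 -0.94, with no overlap between the groups. Ikzf3 at -1.08, Bach2 at -0.98, Id3 at -1.01 and Tcf3 at -0.35† also fell, and Tal1, of stem and erythroid cells, was higher at 0.42 [0.32]. Of 20 T cell genes 1 was lower and 0 higher. Of 16 NK and cytotoxic genes 2 were lower and 1 higher, Nkg7 at 0.31†. Gzma, a granzyme, stood at 1.57, 3.54 and 3.90 CPM in hosts and 4.07, 5.73 and 8.20 CPM in controls. Gzma was lower, at log2 -0.96, with no overlap between the groups. With the mature B share as a covariate Pax5 was at -0.51 and Ebf1 at -0.40, and neither passed.

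Immediate early genes, which cells switch on within minutes of a stimulus, had 6 of 18 lower and 0 higher, with a median of -0.28. Egr3, a factor that antigen receptors induce, stood at 9.40, 11.8 and 18.6 CPM in hosts and 18.01, 24.6 and 36.5 CPM in controls. Egr3 was lower, at log2 -0.99 ± 0.16 (SE, edgeR adjusted p = 0.000902), with 6 of 7 hosts below every control. Btg2, which slows division, stood at 234, 268 and 372 CPM in hosts and 297, 443 and 526 CPM in controls. Btg2 was lower, at log2 -0.54, with 4 of 7 hosts below every control. Ier5, a regulator of the heat shock response, stood at 191, 209 and 224 CPM in hosts and 233, 252 and 306 CPM in controls. Ier5 was lower, at log2 -0.33 [-0.27], with no overlap between the groups. Dusp1 fell by 0.35† [-0.21] and Egr1 by 0.39† [-0.24], but Fos and Jun, the parts of the AP-1 factor, did not pass, at -0.11 and -0.02.

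Of 16 early erythroid genes 4 were lower and 0 higher, and 2 were lower without any 1 of controls N208, N288, N002 and N280. Of 17 late erythroid genes none passed with edgeR (0 unadjusted), and DESeq2 passed 0 as higher and 0 as lower, after a preparation that lysed red cells. Pklr, the pyruvate kinase of red cells, stood at 0.0528, 0.170 and 0.443 CPM in hosts and 0.490, 0.806 and 1.76 CPM in controls. Pklr was lower, at log2 -2.14†, with no overlap between the groups. Its lowest values rest on few counts, and it did not clear the filter in the block fit. In the main fit Pklr cleared the filter through its control levels, which favoured this direction, so its values are a description only. Aqp1, a water channel, stood at 4.72, 8.80 and 11.99 CPM in hosts and 10.3, 13.6 and 22.8 CPM in controls. Aqp1 was lower, at log2 -0.82, with 5 of 7 hosts below every control. Zfpm1, the partner of GATA1, stood at 12.9, 28.6 and 35.2 CPM in hosts and 24.5, 35.2 and 59.8 CPM in controls. Zfpm1 was lower, at log2 -0.55†, with 2 of 7 hosts below every control. The regulators Gata1 and Klf1 did not pass, at -0.09 and -0.53. Of 14 megakaryocyte and platelet genes 1 was higher and 2 lower, Clec1b by 0.61† [-0.55] and Itgb3 by 0.35†, while Pf4 did not pass at 0.06. Selp, P-selectin, stood at 8.40, 15.5 and 33.4 CPM in hosts and 8.39, 10.6 and 13.8 CPM in controls. Selp was higher by log2 0.66, with 5 of 7 hosts above every control.

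Among 17 genes of stem and progenitor cells 4 were higher and 0 lower. That count was 1 with the day as a block, 7 without host N203 and 2 without any 1 of host N014, host N279 and control N208. Cd34, a surface protein of progenitors, stood at 54.0, 70.0 and 85.0 CPM in hosts and 43.9, 55.6 and 59.2 CPM in controls. Cd34 was higher by log2 0.38 ± 0.10 (SE, edgeR adjusted p = 0.0171), with 5 of 7 hosts above every control. Mecom, needed by stem cells, stood at 1.16, 1.63 and 2.65 CPM in hosts and 0.658, 0.995 and 1.47 CPM in controls. Mecom was higher by log2 0.77† [0.64], with 5 of 7 hosts above every control. Procr, which marks them, stood at 3.35, 6.54 and 11.02 CPM in hosts and 2.51, 3.84 and 8.15 CPM in controls. Procr was higher by log2 0.56† [0.42], with 2 of 7 hosts above every control. Kit, the receptor for stem cell factor, did not pass at 0.21.

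Genes of the pathway that the graft's mutation activates were read in host cells, which carry the normal allele. Of 24 JAK-STAT targets and feedback genes 2 were higher and 6 lower, with a median of -0.11. The share higher was near the 8.61% of all genes, and 7.82% of all genes were lower. The lower count fell to 2 without host N014, 2 without host N032 and 3 without host N005. Socs1, a feedback inhibitor, stood at 6.99, 9.96 and 13.7 CPM in hosts and 8.70, 15.2 and 17.9 CPM in controls. Socs1 was lower, at log2 -0.54† [-0.44], with 3 of 7 hosts below every control. Socs2, another feedback inhibitor, stood at 1.62, 2.27 and 4.11 CPM in hosts and 3.37, 4.55 and 5.82 CPM in controls. Socs2 was lower, at log2 -0.78, with 6 of 7 hosts below every control. The kinase gene Pim2 fell by 0.42† [-0.44] and Gadd45g, a stress gene that cytokines induce, by 0.41†. Cish, the feedback gene of STAT5, and Pim1 did not pass, at 0.11 and -0.01. Of 12 receptors that signal through JAK2 2 were higher and 2 lower, Il5ra and Ifngr2, the latter by 0.20†. Csf2rb, the common beta chain of myeloid cytokine receptors, stood at 291, 348 and 472 CPM in hosts and 194, 295 and 307 CPM in controls. Csf2rb was higher by log2 0.36†, with 5 of 7 hosts above every control. Il3ra was at 0.22† [0.12]. Jak2, the kinase itself, stood at 177, 207.5 and 225 CPM in hosts and 181, 215 and 237 CPM in controls, a difference that did not pass (log2 -0.04, edgeR adjusted p = 0.698).

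Interferon lists gave few calls. Of 30 type I response genes 1 was higher, Oas1a at 0.55†, and 2 lower, Stat2 by 0.28† and Mx2 by 0.60† [-0.62], with a median of -0.12. Of 22 interferon-gamma genes 3 were higher, both immunoproteasome subunits and Gbp3 at 0.37† [0.20], and 2 lower, with a median of 0.23. The higher count was 6 without host N269 and 5 without host N203. MHC class II presentation had 5 of 11 lower and 0 higher. Ciita, the transactivator of these genes, stood at 3.55, 9.01 and 11.4 CPM in hosts and 7.59, 11.9 and 13.8 CPM in controls. Ciita was lower, at log2 -0.63†, with 3 of 7 hosts below every control. With the mature B share as a covariate Ciita was at 0.0607.

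Of 21 NF-kB and inflammatory cytokine genes 3 were lower and 0 higher. The lower count was 7 without host N203, 6 without control N002 and 1 without any 1 of hosts N014, N032 and N005. Rel, a subunit of NF-kB, stood at 249.8, 302 and 378 CPM in hosts and 352, 411 and 515 CPM in controls. Rel was lower, at log2 -0.49 ± 0.09 (SE, edgeR adjusted p = 0.00251), with 6 of 7 hosts below every control. The subunit gene Relb fell by 0.24†. Tnf, Il1b and Il6, the inflammatory cytokines most often measured, did not pass, at -0.18, -0.35 and -0.16. The alarmin genes S100a8 and S100a9 did not pass either, at -0.32 and -0.36, but without host N269 both passed, at -0.53 and -0.58. Tgfb1, a mediator of marrow fibrosis, was at 0.07 without passing, and its receptor gene Tgfbr2 fell by 0.30.

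Haem and iron handling had 4 of 19 genes higher and 2 lower. Cp, ceruloplasmin, a ferroxidase, stood at 1.21, 1.74 and 2.65 CPM in hosts and 0.117, 0.267 and 0.774 CPM in controls. Cp was higher by log2 2.41 ± 0.32 (SE, edgeR adjusted p = 0.000180), with no overlap between the groups. Cp cleared the count filter through its host levels, which favoured this direction, so these values are a description only. Ppox, of haem synthesis, fell by 0.28. Of 21 Toll-like receptor and adaptor genes 2 were higher, a share near that of all genes, and 1 lower. Tlr4, the receptor for lipopolysaccharide, stood at 30.9, 38.0 and 61.4 CPM in hosts and 24.5, 27.3 and 36.3 CPM in controls. Tlr4 was higher by log2 0.55, with 4 of 7 hosts above every control. Glycolysis and hypoxia had 3 of 23 entries higher, Pgam1 at 0.43 among them, and 0 lower. Antioxidant genes had 3 of 15 higher (1 with the day as a block) and 1 lower. Zinc finger genes named Zfp, a large family of mostly repressors, had 22 of 274 lower, a share near that of all genes, and 3 higher. Zfp831, a member of that family, stood at 9.01, 12.51 and 14.2 CPM in hosts and 15.5, 18.6 and 20.2 CPM in controls. Zfp831 was lower, at log2 -0.58, with no overlap between the groups. Splicing factors had 3 higher and 4 lower of 59, with 9 higher without control N051 and 7 with the day as a block. Chromatin modifiers had 0 and 1 of 32, with 6 lower without control N051 and 3 with the day as a block, and actin regulators 1 and 0 of 29. Of 15 genes often used as references 3 were higher, Gusb among them, and 1 lower.

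Genes that differed by less than 2-fold yet cleared the spread between mice most firmly were picked by a fixed rule, the 15 smallest p in each direction among passed genes at or above log2 5 of mean CPM. F10, which encodes coagulation factor X, stood at 81.3, 87.7 and 107 CPM in hosts and 45.0, 56.6 and 61.1 CPM in controls. F10 was higher by log2 0.78 ± 0.06 (SE, edgeR adjusted p = 1.23e-06), with no overlap between the groups. It had the smallest p among the 30. Ifi30, the thiol reductase that opens antigens in lysosomes, stood at 211, 255 and 303 CPM in hosts and 133, 151 and 167 CPM in controls. Ifi30 was higher by log2 0.72 ± 0.08 (SE, edgeR adjusted p = 1.83e-05), with no overlap between the groups. Mefv, which encodes the inflammasome sensor pyrin, stood at 129.4, 142 and 164 CPM in hosts and 84.2, 95.4 and 106 CPM in controls. Mefv was higher by log2 0.58 ± 0.06 (SE, edgeR adjusted p = 2.01e-05), with no overlap between the groups. Tmem173, which encodes the DNA-sensing adaptor STING, stood at 37.4, 42.9 and 53.3 CPM in hosts and 24.7, 27.7 and 30.8 CPM in controls. Tmem173 was higher by log2 0.65 ± 0.08 (SE, edgeR adjusted p = 6.04e-05), with no overlap between the groups. Tmem176b, a membrane protein of monocytes and dendritic cells, was at 1.00, the lysosomal membrane protein gene Mfsd1 at 0.40, and Plppr3 at 0.70. Dnajc10, which unties disulfide bonds in the endoplasmic reticulum, was at 0.41, the dipeptidase Cndp2 at 0.43 and Tbc1d9 at 0.69.

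Sik1, a kinase that cyclic AMP induces, stood at 290.2, 332 and 392 CPM in hosts and 421, 470.3 and 498 CPM in controls. Sik1 was lower, at log2 -0.47 ± 0.07 (SE, edgeR adjusted p = 0.000445), with no overlap between the groups. Il16, a chemoattractant for CD4 cells, stood at 51.1, 60.3 and 68.9 CPM in hosts and 76.4, 83.0 and 103 CPM in controls. Il16 was lower, at log2 -0.55 ± 0.08 (SE, edgeR adjusted p = 0.000651), with no overlap between the groups. Satb1, which organizes chromatin in lymphoid cells, stood at 78.1, 105 and 134 CPM in hosts and 126, 160.2 and 191 CPM in controls. Satb1 was lower, at log2 -0.65 ± 0.10 (SE, edgeR adjusted p = 0.000837), with 6 of 7 hosts below every control. Pknox1, a homeodomain factor, fell by 0.52, Phf1, a cofactor of the Polycomb methyltransferase, by 0.53, Rabgap1l by 0.57, Tspan13 by 0.53 and the exchange factor Spata13 by 0.51, each without overlap. Blnk, the B-cell linker, fell by 0.98, Mtss1 by 0.92, the sodium pump subunit Atp1b1 by 0.84 and the lipid kinase Dgkd by 0.41. Some genes not yet named differed by more than 2-fold. Ms4a6d, a membrane protein of myeloid cells, stood at 22.3, 32.1 and 41.4 CPM in hosts and 6.69, 9.63 and 12.004 CPM in controls. Ms4a6d was higher by log2 1.79, with no overlap between the groups. Shtn1, a cytoskeletal adaptor, stood at 9.46, 13.97 and 14.9 CPM in hosts and 2.57, 4.19 and 4.78 CPM in controls. Shtn1 was higher by log2 1.66, with no overlap between the groups. Trib2, a pseudokinase, stood at 2.45, 5.23 and 7.51 CPM in hosts and 7.36, 14.4 and 19.4 CPM in controls. Trib2 was lower, at log2 -1.53, with 6 of 7 hosts below every control. Kdr, a receptor for vascular growth factor, stood at 0.831, 1.08 and 1.40 CPM in hosts and 0.0645, 0.435 and 0.591 CPM in controls (edgeR adjusted p = 0.00275), near the limit of detection in controls. Kdr cleared the count filter through its host levels, which favoured this direction, so these values are a description only.

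**Figure D4:**
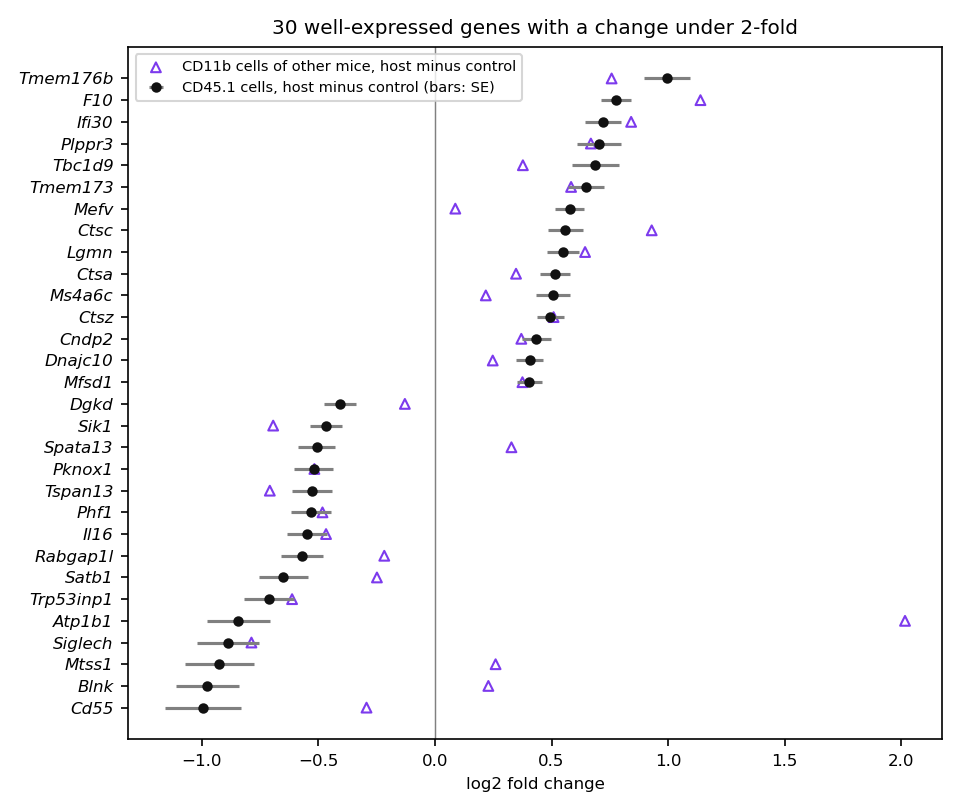
Log2 fold change of host over control for the 30 genes picked by the rule for moderate changes, with standard errors as bars for CD45.1 cells (7 hosts, 8 controls; black) and the value in CD11b cells of other mice (3 and 3; violet triangles). All 15 higher genes are positive in the CD11b cells too, and of the 15 lower genes Atp1b1, Spata13, Mtss1 and Blnk are positive there.

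Sex and the level of chimerism were each tested as modifiers of the difference. The interaction of sex and transplantation passed 0 of 14073 genes with edgeR (425 at an unadjusted p below 0.05, and 3 with DESeq2). The slope on final blood chimerism among the 7 hosts passed 0 of 14625 (591 unadjusted, 3 with DESeq2), and neither count shows that there is no difference. Males alone gave 479 genes and females alone 121. With the 5 pairs of mice that died on 1 day as a block 1752 genes passed, 1426 of them also in the main fit with the same direction, and the same 10 mice without the block gave 851. With the mature B share of each library as a covariate 120 genes passed, 91 higher and 29 lower, and 88 of the higher and 27 of the lower ones were among the main calls. Since that share does not overlap between the groups, the covariate and the group carry much of the same information. Leaving out 1 library at a time gave 1527 (without host N014) to 2687 genes (without host N203), and 1395 of the 2294 passed genes that were tested in each of these fits passed in all of them.

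The same comparison in other mice came from CD45.1 cells positive for CD11b, a myeloid integrin, of 3 male hosts and 3 male controls 52 weeks after transplantation, with 32.5 to 44.9 M counts; no library is shared. None of 15257 genes passed with edgeR, 0% higher and 0% lower (2506 had an unadjusted p below 0.05; DESeq2 passed 291), and 28 passed without host N187. Host N129 stood apart there: its T cell genes took 0.0110% of counts where the other 5 libraries had 0.00208 to 0.00293%, and its mature neutrophil genes 4.94% against 7.73 to 9.18%. Signs are therefore given as a description: of the 1184 genes higher in CD45.1 host cells and tested in both, 1073 (90.6%) were positive in CD11b cells, and of the 995 lower 780 (78.4%) negative, against 65.7% with the same sign among the 11185 genes that had not passed. Without N129 these were 1031 of 1189, 781 of 1012 and 7168 of 11272.

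By list, over members tested in both sorts, all synthetase genes were positive in CD11b cells (20 of 20, median 0.27; 0.15 without N129), as were 36 of 38 proteasome genes, and 3 of 21 cholesterol synthesis genes were positive (median -0.29; -0.49 without N129, when 2 of 21 were). Over all genes tested in CD11b cells 52.0% were positive. All 80 cytosolic ribosomal genes (median 0.34) and all 22 mitosis genes were positive there too, though none passed as higher in CD45.1 cells. DESeq2 passed 13 of these ribosomal genes as higher in CD11b cells. The mature neutrophil list was negative in all members (median -0.54; -0.34 without N129), against a median over all genes of 0.02. Of the resident macrophage list 9 of 15 were positive, with a median of 0.15 (0.29 without N129) beside 0.62 in CD45.1 cells. Of the classical monocyte list 13 of 18 were positive, with a median of 0.15 (0.17 without N129) beside 0.43 in CD45.1 cells. T cell and NK lists went the other way, at 1.37 and 1.34, and dropped to 0.13 and 0.26 without N129. Single genes, none of which passed there, stood at log2 2.49 for Nr1h3, 2.43 for Abca1, 4.54 for F11r, 4.68 for Itgad, 0.93 for Ctsc, -0.79 for Siglech and -0.78 for Srebf2, with the same sign as in CD45.1 cells. Atp1b1, at 2.02, Socs2, at 1.54, and Egr3, at 0.69, had the opposite sign.

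**Figure D5:**
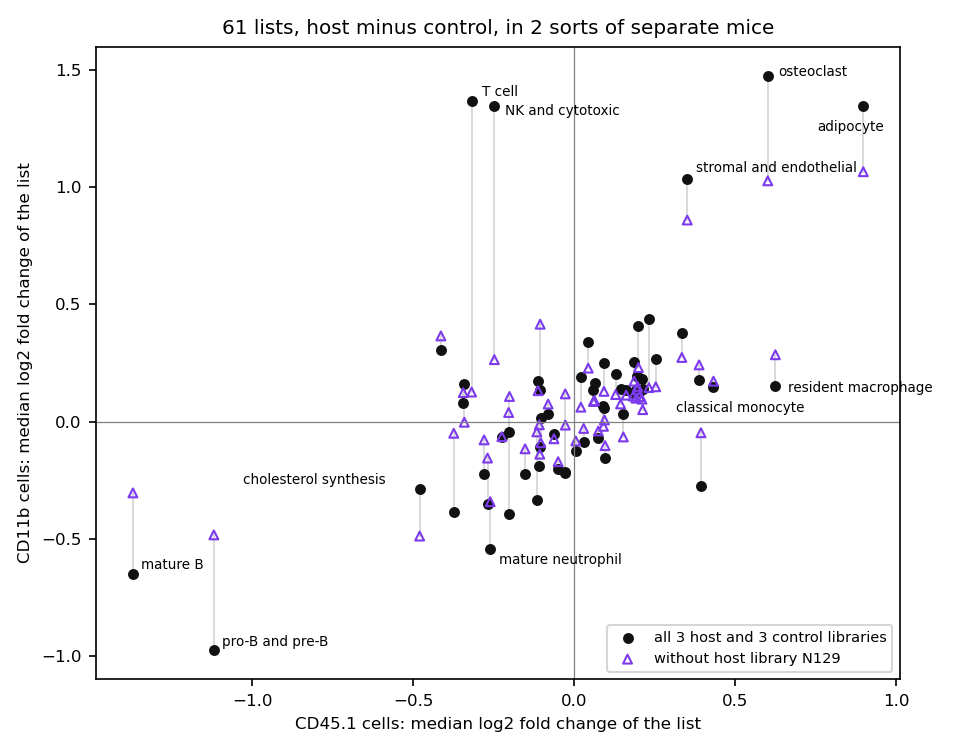
Median log2 fold change, host over control, of each of the 61 lists, over members tested in both sorts, in CD45.1 cells (x axis) and in CD11b cells of other mice (y axis), with all 6 CD11b libraries (black) and without host N129 (violet triangles), joined by a line. T cell and NK lists drop toward 0 without N129, while resident macrophage and osteoclast lists stay positive and cholesterol synthesis and mature neutrophil lists negative on both axes.

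Donor CD45.2 cells of the same 7 hosts show where host cells stand beside the graft; the animals are the same and the host libraries enter both comparisons, so values are only set side by side. The donor library of N204 is named as donor cells in its title but as recipient cells in its source label, and was grouped by its title. Without it 2057 genes passed, beside 1928 with it, and the genes named below as higher or lower in donor cells all passed in the same direction. Of 13662 genes 570 (4.17%) were higher in donor cells and 1358 (9.94%) lower, and 4605 passed with the animal as a block. Several genes raised in host cells were lower in the graft: Fabp4 was at log2 -3.35 (donor minus host), Cd300e at -3.01, Itgad at -3.47, Pparg at -2.48, Phlda3 at -1.77 and Fcgr4 at -1.05. Ctsz at 0.01, Lipg at 0.09, Ifi30 at -0.10 and the sterol gene Sqle at 0.20 passed neither with the animal as a block nor without it. F10, Cyp51 and Srebf2 passed only with the block, at 0.09, -0.20 and -0.10. Lymphoid and plasmacytoid genes that were lower in host cells than in controls were lower again in donor cells, with Pax5 at -4.01, Spib at -2.48 and Siglech at -1.44, whereas the erythroid genes Car1 and Pklr, lower in host cells, were higher in donor cells at 4.96 and 5.49.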

How the data were processed

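RNA was read in sorted marrow cells by poly-A, strand-specific sequencing, 1 library per mouse, per the labels' protocols. The submitters' processing notes name STAR 2.7.3a, featureCounts of Subread 1.6.2 and the build GRCm39. The strand setting and annotation are not given in the sources used here. The deposited counts are whole numbers per gene without normalization, and the deposited TPM values, made by the authors with a tool that is not given in the sources used here, served only as an alternative. Of 56941 gene identifiers 51948 matched a symbol, and 131 shared one. Reads of near-identical or overlapping genes may have been split between them. Genes passing filterByExpr were fitted, after TMM scaling, with edgeR 4.0.16 (quasi-likelihood) in R 4.3.3, with sex as a covariate except for the all-male CD11b mice; each fit held only the groups it compared. P-values were adjusted over all genes by the Benjamini-Hochberg method, with a threshold of 0.05. The fits were tested on simulated counts. Alternatives were DESeq2 1.42.0, limma 3.58.1 (voom, and TPM plus 1 or 0.1), other scalings and filters, a fold minimum of 1.2, each sex alone, the mature B share as a covariate, the day or animal as a block, and leaving out each library; the same 10 mice without the day block, CD11b lists without N129 or over shared genes and shares without each library were added after seeing the data. The labels date each death. Deviations from the group mean correlated across genes between host and control of 1 day in all 5 pairs (0.238 to 0.292). They also correlated between host and donor cells of 1 animal in all 7 (0.174 to 0.600), so both were also fitted as blocks. Each pair was also of 1 sex, which was not removed from these deviations. Day or animal and sex can therefore not be told apart in these correlations. Members, the 61 gene lists and tests were chosen with earlier results of these data known. Named genes were the 12 highest and 12 lowest, the 15 smallest p in each direction under 2-fold with log2 5 or more of mean CPM, the 4 smallest p of each list and 16 genes of interest; further list members named here were chosen after their values were seen. Some genes that the rule names, and 1 promoter window, are not reported here. A lineage share is the summed count of a list as a percent of the library. Motifs were matched exactly in RefSeq promoters of GRCm38.p6 (32851 promoters of 27025 genes), another build than that of the counts, so no counts were placed on them.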

Additional observations from a re-analysis of the deposited data

Results flagged for a closer look

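A library was singled out where its gap to the nearest other library of its group exceeded Dixon's 95% critical share of the group's range, which chance alone gives in about 1 in 20 groups; 20 values in 156 groups met this. Host N269 was far above the other hosts for 5 sterol genes, with Sqle at 10.0 CPM, Cyp51 at 76.0, Idi1 at 18.9, Insig1 at 119 and Srebf2 at 225 CPM. It was also highest for Tgfbi (638 CPM) and the osteoclast share (0.217%) and lowest for the early erythroid share (0.0178%). Other hosts stood out in single values: N279 for the megakaryocyte and platelet share (0.0457%), N014 for the eosinophil share (0.0386%) and Ccr9 (17.9 CPM), and N204 for its low Lrp1 (316 CPM). Among controls, N051 was low for the megakaryocyte and platelet share (0.0266%) and Srebf2 (166 CPM), N002 low for the basophil and mast cell share (0.191%) and high for Lgmn (44.4 CPM) and Aqp1 (22.8 CPM), N208 low for Pparg (1.02 CPM), and N288 high for Chac1 (6.82 CPM) and Pklr (1.76 CPM).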

How the results depend on the processing

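The main comparison passed 2312 genes. Other fits, whose calls need not be among these, passed in all 1263 on TPM plus 1 and 1229 on TPM plus 0.1, 438 against a fold minimum of 1.2, 120 with the mature B share as a covariate, 479 in males alone, 121 in females alone, 851 in the 10 mice of the day pairs without the replicate block and 1752 with it. DESeq2, limma-voom, other scalings, either filter and no sex term gave counts within 1.5 times the main one, and scaling by library totals alone gave 1260 higher and 910 lower. Leaving out each library gave 1527 to 2687 genes. The slope on chimerism passed 3 genes and the sex interaction 3 with DESeq2, and without each library the interaction passed 0 to 2 and the slope 0 in every fit. CD11b cells passed 291 with DESeq2, 0 with the day as a replicate block and 0 to 28 without each library; donor against host passed 4605 with the animal as a replicate block and 1507 to 2554 without each library. The resident macrophage share, log2 0.19 on counts, was 0.33 on summed TPM. Of 6416 alternative values of the 215 passed genes in the per-gene table, 5186 kept direction and threshold, 1225 lost the threshold and 5 turned with the mature B share as a covariate, none past the threshold: Il5ra 0.0615, Sesn1 0.150, Zfpm1 0.0800, Pim2 0.151 and Ciita 0.0607. In fits without 1 library, most of these calls were lost without host N014 (41), and fewest without host N203 (9), and with the day block 42 were lost. The causes of these differences were not tested, beyond the smaller numbers of mice in the fits by sex and by day pair. Depth was even across CD45.1 libraries, so genes at a few counts, such as Pklr, Cd5l and Kdr, have the least precise folds.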
